A study of Mus musculus with 4 samples.

Results

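The genes described here are those with which a cardiomyocyte moves calcium at every beat. They were chosen by 8 RefSeq transcript identifiers, 1 for each of Ryr2, Atp2a2, Pln, Casq2, Slc8a1, Cacna1c, Trdn and Hrc, and a spot belonged to a gene when the array file gave it that identifier. Of these, 7 were on the array, out of 33226 identifiers measured, and the identifier chosen for Cacna1c (the pore of the L-type calcium channel) was not found there and was skipped. RNA of 4 mouse cell populations, all grown from pluripotent stem cells in medium without leukemia inhibitory factor, was labelled with Cy3 and hybridized to 1-colour Agilent arrays, with 1 array per population. Flk1+ MPCs were mesodermal precursor cells sorted at day 4.5 for Flk1, the receptor encoded by Kdr. PCBs were cardioblasts, defined in the study by PDGFRα on the surface and the absence of Flk1, obtained at day 5.5 under CsAYTE, a combination of Cyclosporin A, Y27632 (against the kinase ROCK), Trolox (an antioxidant) and EW7197 (against the receptor kinase ALK5). The cardioblasts that formed spontaneously by the same day without CsAYTE are called sfPCBs, and DMSO was the vehicle. M+CMs were cardiomyocytes of day 10.5 positive for αMHC, the product of Myh6. In the study these cells were recognised by GFP under the αMHC promoter in the embryonic stem cell line EMG7, so the Myh6 signal is tied to how M+CMs were chosen. The study describes M+CMs as derived from PCBs, and the label of their array does not name CsAYTE. The labels name neither the number of cultures behind an array nor the line or feeder used for it. In the study, sorted Flk1+ MPCs were plated on OP9 stromal feeder cells or without a feeder. The study reports that mouse PCBs were not induced without the feeder. PCBs and sfPCBs differ in treatment at the same day, whereas every other pair differs in day as well, so time cannot be told apart from the other differences between them.

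In a working cardiomyocyte, calcium that enters through surface channels opens ryanodine receptors in the sarcoplasmic reticulum, the internal calcium store, and the calcium released there switches on the myofilaments. Relaxation follows when a calcium pump returns calcium to the store and an exchanger in the surface membrane carries the remainder out of the cell. Release proteins (Ryr2, Casq2, Trdn), store proteins (Hrc), the pump and its inhibitor (Atp2a2, Pln) and the exchanger (Slc8a1) therefore form 1 cycle, and its genes are known to become active as the heart tube begins to beat.

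Values are scaled signals: the background-subtracted spot intensity after each array was brought to the same 75th percentile. With no replicate arrays, the error given beside a log2 ratio is the one the scanner software estimates for the spots, which leaves out any difference between cultures, and no test between populations was possible. For Hrc, as for most bright signals of 1 probe, this error was about 10% of the signal. A gap of 2 errors is there close to a set fold and not a measured spread. A signal that the software did not place well above background has no firm size, and a ratio against it is given as "at least". In RNA from a whole population, fewer cells of a type and less RNA per cell cannot be told apart. Each array had 43020 spots besides its controls, and 73.3% to 76.2% of them were well above background, and all arrays were on 1 slide. The labels were checked on markers. Kdr had its highest signal in Flk1+ MPCs (24857.9, against 5510.6 for sfPCBs, 2363.1 for PCBs and 3992.9 for M+CMs). Pdgfra, a surface marker of the cardioblasts, had 7236.6 for Flk1+ MPCs, 3646.6 for sfPCBs, 9135.9 for PCBs and 918.3 for M+CMs. Tnnt2, cardiac troponin T, had 150.2, 3175.7, 145594.9 and 403180.4 in the same order of populations, and Myh6 had 40.6, 43.5, 6156.8 and 112738.1. Pdgfra was thus lower in sfPCBs than in Flk1+ MPCs (log2 ratio -0.99, error 0.06), and Kdr was 2.33-fold lower in PCBs than in sfPCBs. On these transcripts the sfPCB label was borne out less clearly than the PCB label.

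The genes lie on 6 chromosomes and differ widely in length. In the RefSeq annotation of mouse build GRCm38.p6, Ryr2 covers 553847 bases at chr13:11553099-12106945, Trdn 393227 bases at chr10:33083483-33476709 and Slc8a1 365283 bases at chr17:81373105-81738387. Casq2 covers 60100 bases at chr3:102086415-102146514 and Atp2a2 48713 bases at chr5:122453513-122502225. The shortest are Pln, with 8314 bases at chr10:53337686-53345999, and Hrc, with 3705 bases at chr7:45335269-45338973. The array files give no position for a probe, so the exon that a probe reads is not known here.

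Promoter windows of 300 bases, from 250 bases before to 50 after the annotated start, were taken from RefSeq (GRCm38.p6), which listed such a window for Ryr2, Pln, Casq2, Slc8a1, Hrc and Cacna1c. The 4 shown are those of the genes on which the results below turn: Ryr2 and Hrc, which were already high in PCBs, Pln, which was low there and high in M+CMs, and Casq2, which followed none of the others. Each is written 5′ to 3′ on the strand of the gene. Capitals mark 3 motifs: TATAAA, the letters of the TATA box, GATAA, which is read as TTATC where it lies on the opposite strand, and CANNTG.
Ryr2, chr13:12106896-12107195, minus strand: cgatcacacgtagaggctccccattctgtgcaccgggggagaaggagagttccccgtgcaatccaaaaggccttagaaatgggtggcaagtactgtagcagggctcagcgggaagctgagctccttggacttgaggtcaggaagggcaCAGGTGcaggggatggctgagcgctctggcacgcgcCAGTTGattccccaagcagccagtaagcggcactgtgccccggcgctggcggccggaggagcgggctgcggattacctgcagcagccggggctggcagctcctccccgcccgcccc
Hrc, chr7:45335019-45335318, plus strand: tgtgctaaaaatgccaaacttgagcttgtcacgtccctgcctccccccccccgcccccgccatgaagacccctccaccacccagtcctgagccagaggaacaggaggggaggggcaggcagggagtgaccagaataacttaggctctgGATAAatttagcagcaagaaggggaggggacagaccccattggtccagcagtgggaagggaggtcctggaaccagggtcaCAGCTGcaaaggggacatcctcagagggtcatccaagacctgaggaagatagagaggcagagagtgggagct
Pln, chr10:53337436-53337735, plus strand: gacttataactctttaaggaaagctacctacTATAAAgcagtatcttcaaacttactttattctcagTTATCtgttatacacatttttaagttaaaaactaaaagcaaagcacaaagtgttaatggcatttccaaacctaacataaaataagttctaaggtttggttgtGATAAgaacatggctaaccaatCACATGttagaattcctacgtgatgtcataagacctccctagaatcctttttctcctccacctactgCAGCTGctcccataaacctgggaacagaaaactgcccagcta
Casq2, chr3:102086165-102086464, plus strand: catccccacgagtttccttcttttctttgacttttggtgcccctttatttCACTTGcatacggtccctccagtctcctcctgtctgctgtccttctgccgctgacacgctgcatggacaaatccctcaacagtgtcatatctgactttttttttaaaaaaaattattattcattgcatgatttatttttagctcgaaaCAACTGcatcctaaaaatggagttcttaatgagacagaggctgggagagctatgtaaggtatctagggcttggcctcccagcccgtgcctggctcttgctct

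The windows had little in common. Both strands were searched for TATAAA (13.6% of all 32851 windows of this length held it), GATAA (25.4%), CANNTG (72.3%), TNAAGTG (3790 of the windows), the MEF2 box (3.69%) and the CArG box (1.63%). CANNTG, the letters of the E-box, was found in every one of the 8 windows, among them 3 of Cacna1c. TATAAA was found in the window of Pln alone, at positions -219 to -214 from the start. Over all windows it began most often at -30 for genes on the plus strand and -29 on the minus strand. The match in Pln is therefore not at the usual place of a TATA box. GATAA was found once in Hrc, 2 times in Pln and 2 times in Slc8a1, and in none of the windows of Ryr2, Casq2 and Cacna1c. TNAAGTG, the MEF2 box and the CArG box were found in none of the 8. The GC content was 65.3% for Ryr2, 58.7% for Hrc, 50.7% for Slc8a1, 44.7% for Casq2 and 36% for Pln, with a median of 52.7% over all windows. These are matches of letters only.

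Nearly the whole set was far brighter in M+CMs than in Flk1+ MPCs. At least 4-fold higher signals in M+CMs were found for 6 of the 7 genes, all of them also by the bound, whereas 10.9% of the 26497 identifiers compared passed the same fold. At 30-fold the count was 6, or 5 when dim signals were set at their bound, against 1.87% of identifiers. The median log2 ratio of the 7 genes was 6.52 (6.16 at the bounds), beside 0.00 over all identifiers. None was 4-fold lower (8.31% of identifiers), and Casq2 was the exception to the higher levels.

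**Figure D1:**
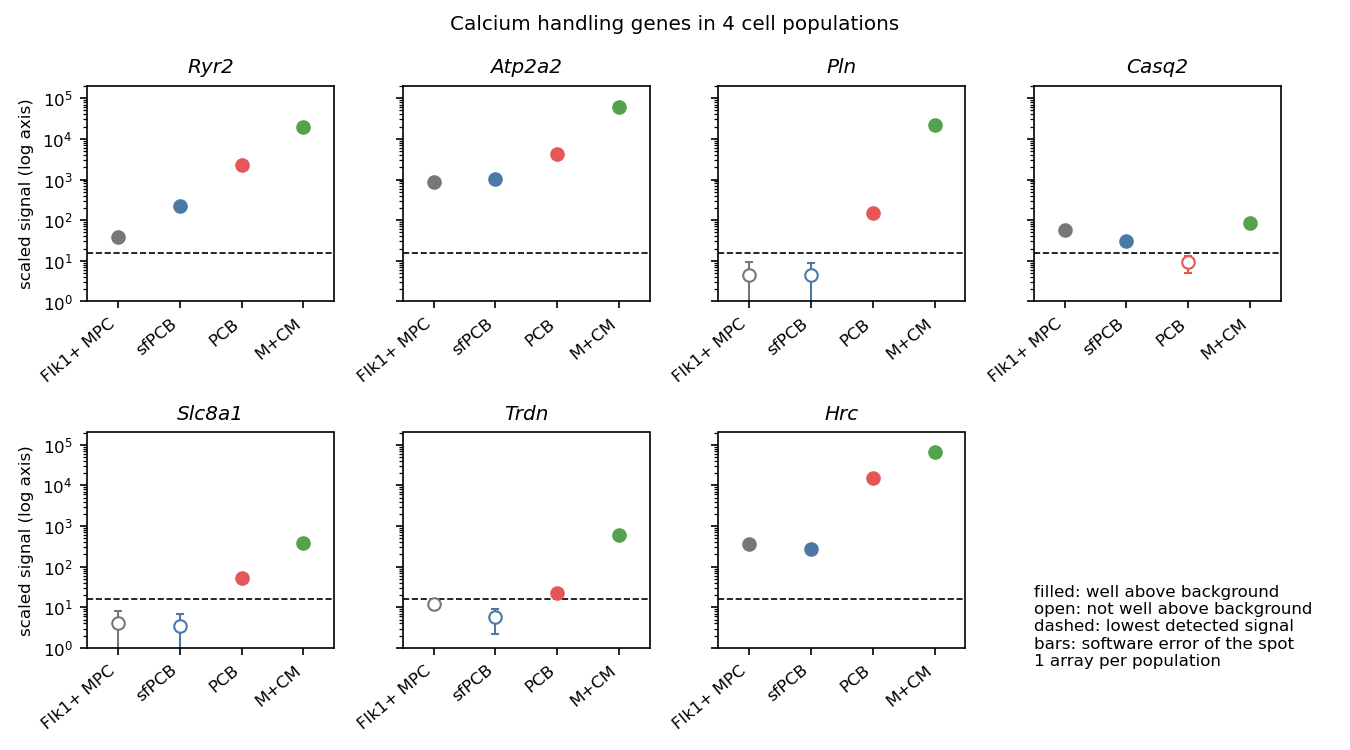
Scaled signal (log axis) of the 7 calcium handling genes in Flk1+ MPCs, sfPCBs, PCBs and M+CMs, 1 array each. Filled points are well above background and open points are not, bars are the software's error of the spot, and the dashed line is the lowest signal called above background. Ryr2, Atp2a2, Hrc, Pln, Slc8a1 and Trdn are highest in M+CMs and next highest in PCBs, and Casq2 stays below 100 throughout.

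Ryr2 (NM_023868) encodes the cardiac ryanodine receptor, the channel through which the store releases calcium. Its scaled signal was 38.0 for Flk1+ MPCs, 227.2 for sfPCBs, 2224.3 for PCBs and 19949.6 for M+CMs. Every population differed from its neighbours in this order by more than 2 errors. The log2 ratio was 9.04 (error 0.24) between M+CMs and Flk1+ MPCs, or 525.3-fold, the 52nd highest of all identifiers compared. It was 2.58 (error 0.24) between sfPCBs and Flk1+ MPCs, 3.29 (error 0.20) between PCBs and sfPCBs and 3.16 (error 0.20) between M+CMs and PCBs. No other gene of the set passed 4-fold between sfPCBs and Flk1+ MPCs.

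Casq2 (NM_009814) encodes cardiac calsequestrin, which buffers calcium inside the store next to the release channel. Its scaled signal was 57.2 for Flk1+ MPCs, 30.9 for sfPCBs, 9.13 for PCBs and 85.6 for M+CMs, and the PCB value was not well above background. The lowest signals that the arrays called above background were 15.14 to 15.94, so the PCB value lay below that limit and those of the other populations above it. M+CMs exceeded Flk1+ MPCs by 0.58 on the log2 scale (error 0.24), or 1.5-fold, and PCBs were at least 3.68-fold lower than Flk1+ MPCs and at least 1.99-fold lower than sfPCBs. M+CMs were at least 5.51-fold higher than PCBs. This gene has a single probe here, so no second probe bears on these values.

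The other calsequestrin, Casq1, known from skeletal muscle, behaved differently on its own probe. It had 21.1 for Flk1+ MPCs, 14.8 (not above background) for sfPCBs, 482.1 for PCBs and 1224.5 for M+CMs. The log2 ratio between M+CMs and Flk1+ MPCs was 5.86 (error 0.32), or 58.1-fold. Whether either probe also binds the other transcript was not tested. Among 6 skeletal muscle markers (Myod1, Myog, Ckm, Tnnt3, Actn3 and Myh4), Myog and Myh4 were not above background in any population, and the summed signal of all 6, mostly that of Tnnt3 and Actn3, was 479.4 in M+CMs and 1004.9 in Flk1+ MPCs. Tnnt3 had 549.1 for Flk1+ MPCs and 62.1 for M+CMs. Ckm went the other way, from 22.5 to 79.2, or 3.51-fold higher in M+CMs.

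Trdn (NM_029726) encodes triadin, which ties calsequestrin to the ryanodine receptor. The scaled signal of its measured probe was 12.4 in Flk1+ MPCs and 5.70 in sfPCBs, both not above background, then 22.7 in PCBs and 612.9 in M+CMs. M+CMs were thus at least 38.4-fold higher than Flk1+ MPCs and 27-fold higher than PCBs (log2 ratio 4.76, error 0.31). PCBs were at least 1.42-fold higher than Flk1+ MPCs, a gap below 2 errors. The other probe of the same transcript was not above background in any population, with signals between 9.93 and 13.2, and did not enter the value.

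Hrc (NM_010473) encodes the histidine-rich calcium-binding protein of the store lumen. It was the gene of the set with the highest PCB signal relative to M+CMs. The scaled signal was 361.6 for Flk1+ MPCs, 276.0 for sfPCBs, 15222.6 for PCBs and 64576.9 for M+CMs. Precursors and sfPCBs were close, with a log2 difference of -0.39 (error 0.21), under 2 errors, and both were far below the other populations. M+CMs exceeded Flk1+ MPCs by 7.48 (error 0.20), or 178.6-fold, and PCBs exceeded them by 5.40 (error 0.20), or 42.1-fold. The step from PCBs to M+CMs was 2.08 (error 0.20), or 4.24-fold, the smallest of the 7 in that comparison.

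Atp2a2 (NM_009722) encodes SERCA2, the pump that returns calcium to the store. Its scaled signal, a mean over 2 probes, was 848.3 for Flk1+ MPCs, 1021.9 for sfPCBs, 4367.4 for PCBs and 60790.1 for M+CMs. Flk1+ MPCs and sfPCBs differed by 0.27 on the log2 scale (error 0.14), below 2 errors, and both were clearly above background. M+CMs exceeded Flk1+ MPCs by 6.16 (error 0.14), or 71.7-fold, and PCBs exceeded them by 2.36 (error 0.14), or 5.15-fold. The probes differed in size, with log2 ratios of 6.75 and 5.58 between M+CMs and Flk1+ MPCs and of 2.94 and 1.78 between PCBs and Flk1+ MPCs, and both gave the same order of PCBs and M+CMs above the rest. Between M+CMs and PCBs they lay at 3.81 and 3.79.

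Pln (NM_023129) encodes phospholamban, the small membrane protein that holds the pump back until it is phosphorylated. Its scaled signal was 4.56 in Flk1+ MPCs and 4.40 in sfPCBs, neither above background, 149.1 in PCBs and 22371.6 in M+CMs. It was thus measurable in PCBs, at least 9.35-fold above Flk1+ MPCs and at least 9.85-fold above sfPCBs, and the gap to M+CMs was wider. M+CMs exceeded PCBs by 7.23 on the log2 scale (error 0.21), the 18th highest of 26134 identifiers. M+CMs were at least 1403.2-fold higher than Flk1+ MPCs.

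Slc8a1 (NM_011406) encodes NCX1, the exchanger that carries calcium out in return for sodium. On the chosen identifier the scaled signal was 4.21 in Flk1+ MPCs and 3.39 in sfPCBs, both not above background, 53.4 in PCBs and 386.8 in M+CMs. M+CMs were at least 24.3-fold higher than Flk1+ MPCs and 7.25-fold higher than PCBs (log2 ratio 2.86, error 0.23). PCBs were at least 3.35-fold higher than Flk1+ MPCs. A different Slc8a1 transcript on the array (NM_001112798, not among the chosen identifiers) was above background everywhere, with 52.7 for Flk1+ MPCs, 73.1 for sfPCBs, 328.8 for PCBs and 2685.3 for M+CMs. Its log2 ratios were 5.67 (error 0.23) for M+CMs and 2.64 (error 0.23) for PCBs, each over Flk1+ MPCs.

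Cacna1c was represented on the array by another transcript, NM_001256002, which is given here for completeness of the cycle and was not counted. Its scaled signal was 39.0 for Flk1+ MPCs, 13.2 (not above background) for sfPCBs, 49.7 for PCBs and 210.0 for M+CMs. M+CMs were 5.38-fold above Flk1+ MPCs (log2 ratio 2.43, error 0.24), and PCBs exceeded Flk1+ MPCs by 0.35 (error 0.26).

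**Figure D2:**
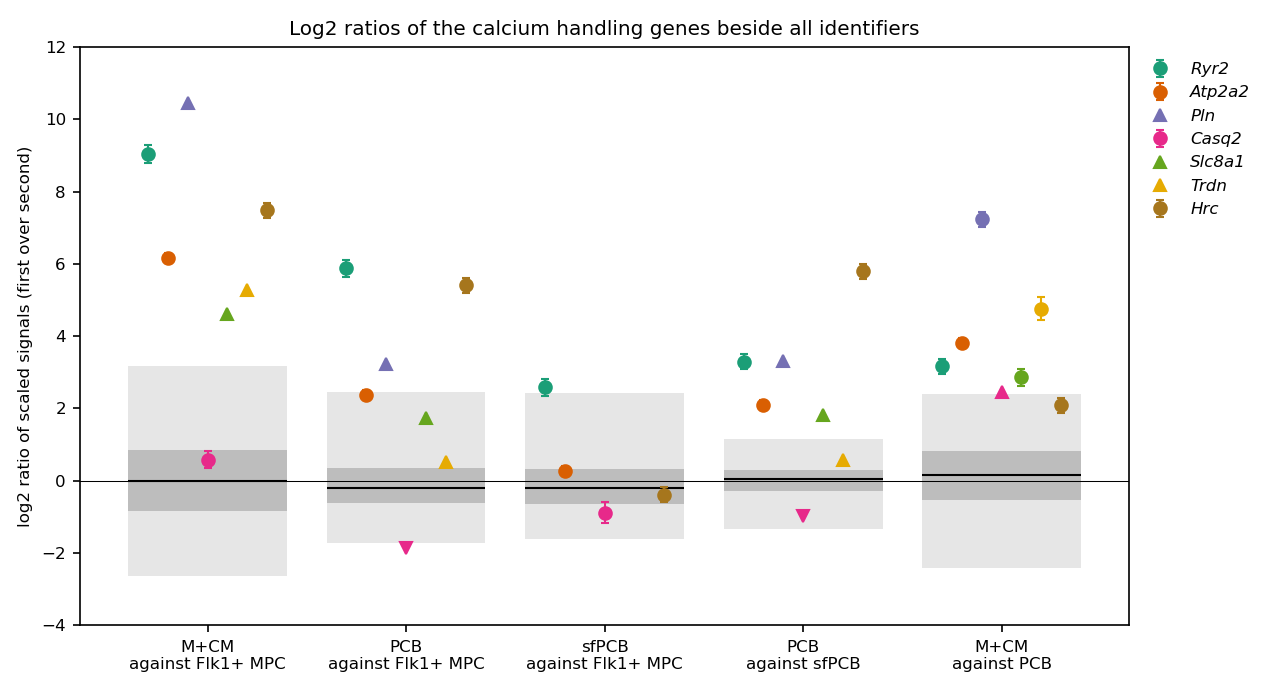
Log2 ratio of scaled signals in 5 comparisons for each calcium handling gene. Circles are measured ratios with the software's error, triangles are bounds where 1 side was not above background, and dark and light bars span the middle 50% and 90% of all identifiers around their median (black line). Ratios of 6 genes lie above the light bar between M+CMs and Flk1+ MPCs, and 3 of the 4 genes measurable between sfPCBs and Flk1+ MPCs lie inside it.

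The genes differed in how far PCBs lay above Flk1+ MPCs. PCBs were at least 4-fold brighter than Flk1+ MPCs for 5 of 7 genes (4 by the bound), against 6.49% of 25855 identifiers, and at least 30-fold for 3 (2 by the bound), against 1.34%. The probes of Atp2a2 gave 7.7-fold and 3.44-fold, so its call at 4-fold rests on their mean. The median log2 ratio was 3.66 (2.36 at the bounds), beside -0.20 over all identifiers. Casq2 was the 1 gene with a 4-fold lower fitted value (3.96% of identifiers), and its bound of 3.68 did not reach that fold. In sfPCBs, 1 of the 4 genes above background in either array, Ryr2, was 4-fold above Flk1+ MPCs (6.63% of 25744 identifiers), none was 4-fold below (3.36%) and none reached 30-fold (1.27%), and the median of the 4 was -0.06, beside -0.22. Pln, Slc8a1 and Trdn were not above background in either of those arrays. These comparisons share the Flk1+ MPC array, so an error in it would move all of them together.

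PCBs and sfPCBs, both from day 5.5, were set side by side to ask how cells under CsAYTE differed from those that formed without it. Hrc was 55.2-fold higher in PCBs (log2 ratio 5.79, error 0.20), the 33rd highest of 25232 identifiers. Ryr2 was 9.79-fold higher and Atp2a2 4.27-fold higher (log2 ratio 2.10, error 0.14), while Pln was at least 9.85-fold, Slc8a1 at least 3.53-fold and Trdn at least 1.5-fold higher. At least 4-fold higher signals were found for 5 of the 7 genes (4 by the bound), against 2.14% of identifiers, and at least 30-fold for 2 (1 by the bound), against 0.25%. The median log2 ratio was 3.29 (2.10 at the bounds), beside 0.03 over all identifiers, and none was 4-fold lower (2.5% of identifiers). One probe of Atp2a2 gave 6.74-fold and the other 2.71-fold, so the call of this gene at 4-fold rests on their mean.

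Markers of other cells moved with this comparison. Of 14 genes of the cardiomyocyte sarcomere list (contractile proteins and the peptide Nppa), 12 passed 4-fold in favour of PCBs, and the summed scaled signal of the list was 24811.6 in sfPCBs and 1128781.1 in PCBs. The 8 stromal feeder markers (Col1a1, Col1a2, Col3a1, Lox, Postn, Lum, Dcn and Thy1) summed to 276172.7 in sfPCBs and 141794.5 in PCBs, against 3010.7 for Flk1+ MPCs and 22134.7 for M+CMs, and 7 of the 8 were highest in sfPCBs. Col1a1 and Col1a2 carried most of these sums. Of the 8, 4 were at least 4-fold lower in PCBs: Postn at least 828.6-fold, Lum 290.8-fold, Dcn 30.6-fold and Col3a1 5.01-fold (chosen after their values were seen). The 6 endothelial markers (Pecam1, Cdh5, Tek, Tie1, Emcn and Esam) summed to 3616.7 in sfPCBs and 272.0 in PCBs, and all 6 had their highest signal in sfPCBs, although Emcn was not above background anywhere. Of the other 5, 4 were at least 4-fold lower in PCBs. Cdh5 and Tie1 were not above background in PCBs. The 6 blood markers summed to 1585.1 in sfPCBs and 351.2 in PCBs, against 1336.7 for Flk1+ MPCs. Runx1 carried most of the sfPCB sum (1223.8, against 156.2 in PCBs). Klf1 and Ptprc were higher in PCBs, Ptprc by less than 2 errors. Of the 5 blood markers above background in either array, 1 was 4-fold lower in PCBs. The 5 smooth muscle markers summed to 189987.9 in sfPCBs and 254443.0 in PCBs. Acta2 carried most of these sums (124535.6 and 191817.5), while Tagln and Smtn were lower in PCBs. The part of these cells in the results on calcium handling genes was not tested.

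M+CMs were brighter than PCBs for the whole set. All 7 genes were at least 4-fold higher, also by the bound (7.28% of 26134 identifiers), none was 4-fold lower (6.72%), and 1 of them, Pln, was at least 30-fold higher (0.601%). The count of 7 at 4-fold held only with some settings. Hrc, at 2.08, fell to 1.87 without scaling and 1.96 with scaling to the median, and with normexp background correction Casq2 was at 1.05 and Slc8a1 at 1.95. The median log2 ratio was 3.23 (3.16 at the bounds), beside 0.16. The steps ranged from 2.08 for Hrc to 7.23 for Pln. Expressed as a percent of the M+CM signal of the same gene, the PCB signal was 23.6% for Hrc, 13.8% for Slc8a1, 11.1% for Ryr2, 7.18% for Atp2a2, 3.7% for Trdn and 0.667% for Pln. Casq2 was not above background in PCBs and has no such value. The median of the 6 was 9.17%.

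The sarcomere list gives a scale for these percentages. Its 14 genes had a median of 25.6% in PCBs, from 0.215% for Tnni3, the adult cardiac troponin I, to 103% for Myh7, a myosin heavy chain. The calcium handling genes lay within that range. On a log2 scale that runs from 0 at the Flk1+ MPC level to 1 at the M+CM level, PCBs stood at 0.72 for Hrc, 0.65 for Ryr2 and 0.38 for Atp2a2, the genes above background in all 4 populations that were 4-fold higher in M+CMs.

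**Figure D3:**
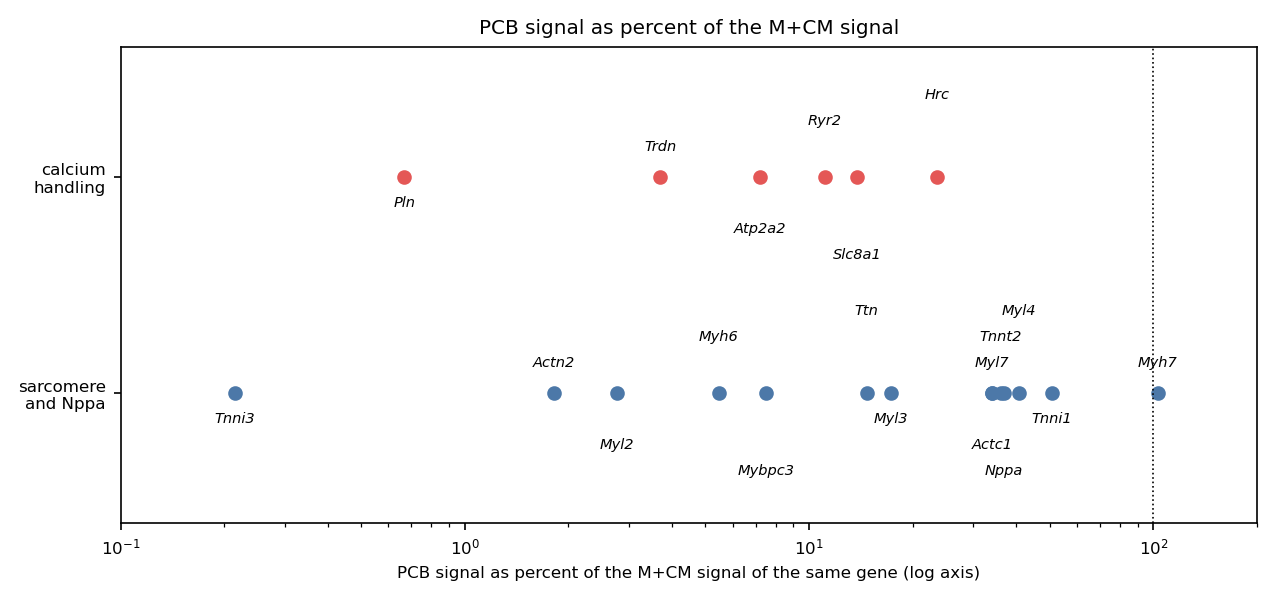
PCB signal as percent of the M+CM signal of the same gene (log axis, dotted line at 100%), for 6 calcium handling genes and 14 genes of the sarcomere list, 1 array per population. Pln at 0.667% and Tnni3 at 0.215% are the lowest of their rows, and Hrc at 23.6% and Myh7 at 103% the highest.

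The wider machinery was read from a list of 95 further calcium genes in 10 roles, of which 90 were found in the files. Between M+CMs and Flk1+ MPCs, 88 were above background in either array. At least 4-fold higher in M+CMs were 27 (30.7%), 2 were 4-fold lower (2.27%) and 59 lay within 4-fold, and the median log2 ratio was 0.63. At 30-fold 9 were higher, beside 1.87% of all identifiers. The shares of all identifiers at 4-fold were the 10.9% and 8.31% given above. They are also the background of the counts by role below, and no test was made of the list or its roles against them. PCBs were 4-fold higher than Flk1+ MPCs for 10 of 87 and lower for 2, where all identifiers gave 6.49% and 3.96%. For sfPCBs 3 of 85 were higher (3.53%) and 6 lower (7.06%), where all identifiers gave 6.63% and 3.36%. Between PCBs and sfPCBs the counts were 9 higher (10.6%) and 0 lower of 85, beside 2.14% and 2.5%. Between M+CMs and PCBs they were 19 higher (22.1%) and 2 lower (2.33%) of 86, beside 7.28% and 6.72%.

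**Figure D4:**
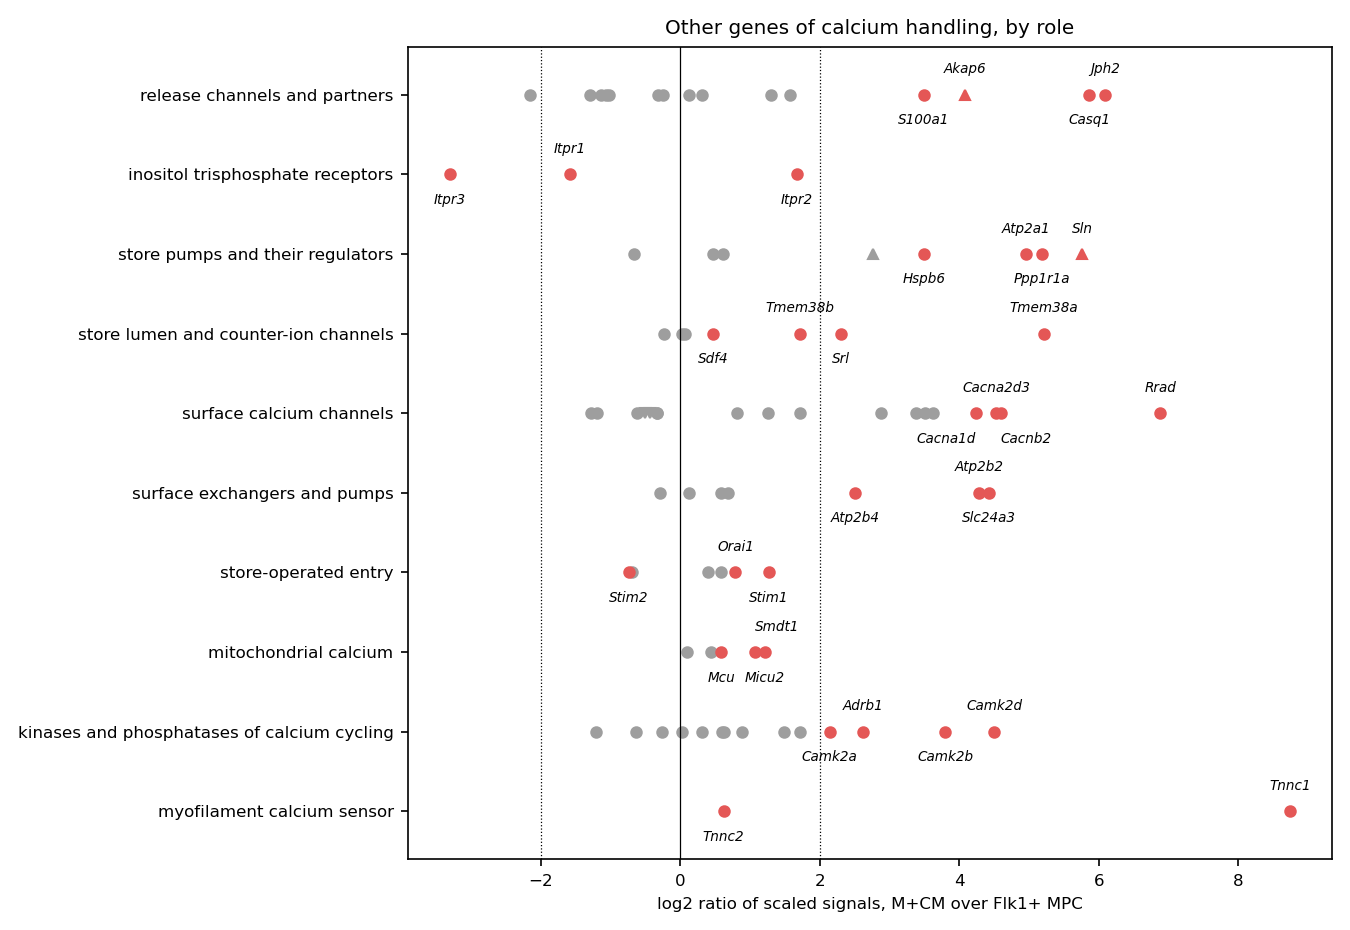
Log2 ratio of scaled signals, M+CMs over Flk1+ MPCs, for 85 of the 88 further calcium genes above background in either array, in rows by role. Red symbols with names are genes of large ratio in their role, triangles are bounds and dotted lines mark 4-fold. Store-operated entry and mitochondrial genes lie between the dotted lines, and Tnnc1 is farthest to the right at 8.74.

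Partners of the release channel were divided. Of 15 measured, 4 passed 4-fold in favour of M+CMs and 1 against. Jph2, the junctophilin that holds the store against the surface membrane, was at 23.0 for Flk1+ MPCs, 66.1 for sfPCBs, 539.6 for PCBs and 1570.5 for M+CMs, a 68.2-fold difference between M+CMs and Flk1+ MPCs. Akap6, an anchor of protein kinase A near the ryanodine receptor, was at least 16.9-fold higher. S100a1, a calcium-binding regulator of release and uptake, had 354.4 for Flk1+ MPCs and 3991.1 for M+CMs. The skeletal muscle receptor Ryr1, chosen after its values were seen, went the other way, with 111.2 for Flk1+ MPCs, 55.5 for sfPCBs, 44.2 for PCBs and 25 for M+CMs, 4.45-fold lower in M+CMs. The inositol trisphosphate receptors, release channels of many cell types, were at 10435.3 and 1058.8 in Flk1+ MPCs and M+CMs for Itpr3, 22707.7 and 7577.5 for Itpr1, and 1281.1 and 4065.8 for Itpr2.

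Genes around the pump were mostly brighter in M+CMs, 5 of 8 at least 4-fold. Sln, sarcolipin, an inhibitor of the pump like phospholamban, was not above background in Flk1+ MPCs and sfPCBs (3.53 and 8.54), was at 28.4 in PCBs and reached 861.1 in M+CMs. M+CMs exceeded Flk1+ MPCs at least 54-fold and PCBs 30.4-fold. Atp2a1, the skeletal muscle pump, had 205.1, 191.1, 453.2 and 6378.4 in the order of populations used above, and whether its probe also binds the Atp2a2 transcript was not tested. Ppp1r1a, a phosphatase inhibitor, exceeded its Flk1+ MPC level 36.2-fold in M+CMs and Hspb6, a small heat shock protein, did so 11.2-fold. In the store membrane and lumen, 2 of 7 passed 4-fold. These were Tmem38a, a counter-ion channel, with 945.1 in Flk1+ MPCs, 1739.2 in PCBs and 34965.1 in M+CMs, and Srl, sarcalumenin, with 668.9, 1362.9 and 3295.8. Tmem38b and Sdf4 were within 4-fold.

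At the surface membrane, 8 of 18 channel genes passed 4-fold in favour of M+CMs over Flk1+ MPCs and none passed it the other way. Rrad, a small GTPase that restrains L-type channels, had 101.8 for Flk1+ MPCs, 138.1 for sfPCBs, 802.8 for PCBs and 12020.9 for M+CMs. The auxiliary subunits Cacnb2 (29.0 against 695.6) and Cacna2d3 (34.7 against 801.4) and the pore subunit Cacna1d (48.7 against 918.7) were also brighter in M+CMs. The T-type pore gene Cacna1h, chosen after its values were seen, was read differently by its 2 transcripts, with 70-fold for NM_021415 and 2.16-fold for NM_001163691. Of 8 exchangers and pumps, 3 passed 4-fold. They were Slc24a3, a potassium-dependent exchanger, and the calcium pumps Atp2b2 (19.4-fold as a mean of its probes) and Atp2b4. One probe of Atp2b2 was not above background in Flk1+ MPCs (15.2), so that mean has no firm size. The other probe had 106.5 for Flk1+ MPCs and 1045.6 for M+CMs. Of the 3 probes of Atp2b4, 1 gave 1.67-fold. Another was not above background in Flk1+ MPCs (17.2), so the mean of Atp2b4 has no firm size either.

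None of 7 genes of store-operated entry and none of 6 of mitochondrial calcium uptake and release passed 4-fold between M+CMs and Flk1+ MPCs. With 10.9% of all identifiers higher and 8.31% lower, a count of 0 among so few genes is near the background, and the roles were not tested against each other. Stim1, the store sensor, had 1791.5 for Flk1+ MPCs and 4316.3 for M+CMs, Orai1 298.6 and 517.4 and Stim2 188.6 and 113.3. Mcu, the pore of the mitochondrial uniporter, had 78.4 and 118.0, and its partners Micu2 and Smdt1 were within 4-fold as well. Of 14 kinases, phosphatases and receptors, 4 passed 4-fold in favour of M+CMs. Camk2d, the main cardiac form of calcium/calmodulin-dependent kinase, had 329.4 for Flk1+ MPCs and 7436.4 for M+CMs, and Camk2b had 44.4 and 617.8, Camk2a 129.0 and 570.6 and the receptor Adrb1 148.3 and 910.1. The probes of Camk2a (1.73-fold and 11.3-fold) and Adrb1 (2.17-fold and 17.4-fold) disagreed on 4-fold, so those calls rest on their means. Tnnc1, cardiac troponin C and the calcium sensor of the myofilament, was at 182.7 for Flk1+ MPCs, 303.9 for sfPCBs, 20651.8 for PCBs and 77886.6 for M+CMs, whereas its skeletal counterpart Tnnc2 was at 153.8, 163.0, 399.1 and 237.1.

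The typical course of the set was taken as the median over its 7 genes of the log2 signals, each centred on its own mean over the 4 arrays. It ran from -2.47 in Flk1+ MPCs and -2.46 in sfPCBs to 0.72 in PCBs and 4.28 in M+CMs. Pln, Slc8a1 and Trdn were not above background in Flk1+ MPCs and sfPCBs, nor Casq2 in PCBs, so the low end of this course and any distance of these genes from it have no firm size. Of the genes above background everywhere, Atp2a2 lay at a distance of 0.88 over the 4 log2 values, Hrc at 1.99 and Ryr2 at 2.20. Among 18489 other named transcripts the nearest were Rrad (0.47), Rcan2, a regulator of calcineurin (0.54), Lrrc10, a leucine-rich repeat protein of heart muscle (0.55), Grin3a, a glutamate receptor subunit (0.65), and Rgs7bp, a binding partner of a signalling regulator (0.65). The last 2 were themselves not above background in sfPCBs. Rrad is also 1 of the 95 further calcium genes. Rcan2 had 109.2, 68.8, 882.8 and 11616.7 in Flk1+ MPCs, sfPCBs, PCBs and M+CMs. Lrrc10 had 82.3, 135.4, 809.5 and 10527.4. The likeness rests on 4 arrays and is a description of those.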

How the data were processed

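Total RNA was hybridized to 1-colour arrays, 1 per population, and each array was assigned to its population by its label. The authors deposited the spot intensity values of Feature Extraction 11.5.1.1, whose background-subtracted signal was used, and a matrix of log2 values deposited by the authors, which equals that signal without scaling (column medians 6.88, 7.40, 7.19 and 7.16 for Flk1+ MPCs, sfPCBs, PCBs and M+CMs) and was scaled like it when used as an alternative. The array design is annotated on mm9. Control spots and outlier-flagged spots (87 to 144 per array) were left out, the signals of each array were multiplied to give it a 75th percentile of 2198.4, which is the mean over the arrays, repeated spots were averaged on the log2 scale, and so were the probes of an identifier that were above background on any array (0.5 or more of the spots so called). Names came from a RefSeq table of GRCm38.p6, which matched 21715 of 33226 identifiers. The number of arrays limits the precision, and repeated spots had a median SD of 0.054 to 0.096 (log2). A bound set the dim side at the higher of its own signal and the lowest one called above background.

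The members and lists were chosen with earlier results of these data known. The text names all members, up to 4 genes of each role of the calcium list by the size of the ratio of M+CMs over Flk1+ MPCs, the 5 nearest profiles and the markers Kdr, Pdgfra, Myh6 and Tnnt2. Some genes beyond these were chosen after their values were seen: Casq1 beside its paralog, Tnni3 and Myh7 as ends of a range, and those so described. A few genes that this rule names are not reported here. Fold limits of 4 and, as in the study, 30 were used. The counting by identifier was tested on simulated large changes of bright signals with a single probe each. That test does not bear on dim signals, bounds, scaling or the averaging of probes. The 10 alternatives covered scaling, background correction, offset, detection, spots, probes and the source of the values. The normexp correction started from the median spot intensity, as the files give no mean. Python 3.11.15 (numpy 2.4.6, pandas 2.3.3, matplotlib 3.10.9) and R 4.3.3 (limma 3.58.1) were used.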

Additional observations from a re-analysis of the deposited data

How the results depend on the processing

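The count of genes at least 4-fold different was 6 between M+CMs and Flk1+ MPCs, 6 between PCBs and Flk1+ MPCs, 1 between sfPCBs and Flk1+ MPCs, 5 between PCBs and sfPCBs and 7 between M+CMs and PCBs. The 6 between PCBs and Flk1+ MPCs were 5 genes higher in PCBs and Casq2, which was lower. With normexp, with normexp and quantile normalization and with an offset of 50, it was 3 for PCBs over Flk1+ MPCs, 0 for sfPCBs over Flk1+ MPCs and 3 for PCBs over sfPCBs. For M+CMs over PCBs it was 5, 5 and 6 under these settings, 6 without scaling and 6 with scaling to the median, and for PCBs over sfPCBs 4 and 6 under the latter pair. With only genes above background in both arrays, it was 3 of 4 for M+CMs over Flk1+ MPCs, and 3 of 3 for PCBs over Flk1+ MPCs and over sfPCBs. The share of all identifiers was not computed under the alternatives, so these counts have no background beside them. The median log2 ratio moved as follows. Without scaling it was 0.28 for sfPCBs over Flk1+ MPCs and 3.02 for M+CMs over PCBs. Scaled to the median it was 6.25 for M+CMs over Flk1+ MPCs. Normexp gave 5.99 for M+CMs and 1.37 for PCBs over Flk1+ MPCs, 1.52 for PCBs over sfPCBs and 2.99 for M+CMs over PCBs, and with quantile normalization 6.06, 1.51, 1.38 and 2.88. The offset of 50 gave 6.06, 1.87 and 1.87 for the first 3 of these. With both arrays above background, M+CMs over Flk1+ MPCs gave 6.82, PCBs over Flk1+ MPCs 5.40 and M+CMs over PCBs 3.48. With each probe on its own, sfPCBs over Flk1+ MPCs gave 0.19 and M+CMs over PCBs 3.51. The normexp setting and the offset add 50 to every signal, which by construction draws ratios of dim signals toward 0. Leaving out the scaling, or scaling to the median, moves all ratios of a comparison by the same amount. That amount is set by the arrays' factors (0.867 for sfPCBs to 1.116 for M+CMs in the main setting). Quantile normalization moves ratios unequally. Between M+CMs and Flk1+ MPCs it took Casq2 from 0.58 to 0.29 and Ryr2 from 9.04 to 9.09. The medians with both arrays above background cover only the genes that this filter keeps. Those with each probe on its own count the probes of Atp2a2 separately. Of 313 values of single genes under the alternatives, 92 moved by more than their error, 86 toward 0 and 6 away, and 0 changed sign. There were 0 saturated spots to leave out, and the deposited matrix, scaled to the percentile like the signal it repeats, could not differ much, so neither setting bears on stability. The filter on both arrays leaves each ratio as it was. A gene with a single measured probe cannot move when each probe stands on its own. All of these values are among the 313, so the share that moved understates the dependence on processing. Ratios against signals under about the lowest detected value (15.14 to 15.94) have no firm size. No paired analysis was possible because each population had 1 array, and for the same reason no array could be left out.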
